A study of Mus musculus with 6 samples.

Results

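The miR-378 family is a small group of near-identical microRNAs (miRNAs, short RNAs that pair with messenger RNAs through their seed, bases 2 to 8, and lower their output). They were measured in 6 hearts, 1 small RNA library each, from males of the inbred mouse strain C57BL/6J that were wild-type, 18 weeks old and not treated. The labels call the tissue whole heart, whereas the protocol for the RNA speaks of the frozen ventricular apex, and which of these was used is uncertain. Members were chosen by name, as entries called Gm25301 or Mir378, which gave 4 of the 1102 entries listed in each library. A further 2 entries, under the older style of name mmu-mir-378c and mmu-mir-378d, are family copies too and serve as the comparison. The labels do not say more about how the hearts were sampled, so p-values speak only of these 6 libraries. Those of the chi-square tests set the differences between libraries against counting noise alone. With 1 library per heart, differences between hearts and between library preparations cannot be told apart.

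The main member, miR-378a, is made inside Ppargc1b, the gene of the coactivator PGC-1β, which acts with nuclear receptors to raise the expression of mitochondrial and fatty acid oxidation genes. The miRNA is released from the same transcript and is known for effects on energy use in muscle, liver and fat. A miRNA hairpin is cut into a 5p and a 3p strand, of which usually 1 is kept and the other, the passenger, is lost. In the miR-378a hairpin the 3p strand is the one usually studied.

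The mature sequences of the 3 copies miR-378b, miR-378c and miR-378d are shown because they are so alike that a short read can match more than 1 of them. They are RefSeq sequences on GRCm38.p6, written 5′ to 3′ with the seed in capitals, from chr11:88352839-88352858 (plus strand), chr14:46954905-46954925 (minus strand) and chr10:126710355-126710376 (minus strand).
miR-378b: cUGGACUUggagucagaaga
miR-378c: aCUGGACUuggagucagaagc
miR-378d: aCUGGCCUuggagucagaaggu
miR-378b starts 1 base later than miR-378c, and its 20 bases then differ from it in 1 place (C21A, counted from the 5′ end of miR-378c). That later start moves the seed of miR-378b by 1 base. miR-378d differs from miR-378c at A6C, inside the seed, and at C21G. miR-378a-3p shares an unbroken run of at least 15 bases with each of the 3 copies. miR-378a-5p, from the other arm, shares no run longer than 4 bases with any of them.

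The hairpins of the 3 copies differ far more than their mature strands, as the RefSeq precursors show, with the mature strand in capitals.
Mir378b: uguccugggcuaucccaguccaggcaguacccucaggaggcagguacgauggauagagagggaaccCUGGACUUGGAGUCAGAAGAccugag
Mir378c: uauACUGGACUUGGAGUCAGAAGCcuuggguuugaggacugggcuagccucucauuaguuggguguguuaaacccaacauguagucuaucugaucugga
Mir378d: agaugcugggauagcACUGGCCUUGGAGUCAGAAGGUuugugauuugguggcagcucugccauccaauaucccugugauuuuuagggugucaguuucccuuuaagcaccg
In miR-378b the mature strand is on the 3p side, as in miR-378a, while in miR-378c and miR-378d it is on the 5p side. The predicted fold of the annotated miR-378a hairpin had an energy of -0.583 kcal/mol per base, against -0.338 for miR-378b, -0.273 for miR-378c and -0.318 for miR-378d (RNAfold, over annotated hairpins of unequal length). In that prediction 72.7% of the miR-378a bases were paired, against 56.5%, 70.7% and 61.8%.

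The annotation sets the hairpins in different surroundings. Mir378a lies on chromosome 18 from 61397835 to 61397900, on the minus strand of GRCm38, in intron 1 of Ppargc1b. It shares the strand of its host and lies 2531 bases from the host's annotated start. Gm25301, an annotated hairpin from 61397813 to 61397925, covers the same place on the plus strand. The files name the locus after Gm25301, so miR-378a appears in them as antisense: miR-378a-3p (61397837 to 61397858) is the antisense entry of the Gm25301 5p arm, and miR-378a-5p (61397875 to 61397896) that of the 3p arm. Mir378b lies on chromosome 11 in an intron of Msi2, an RNA-binding protein gene, on the opposite strand from it. Mir378c lies on chromosome 14 in an intron of Samd4, likewise on the opposite strand, and Mir378d on chromosome 10 overlaps no annotated gene. None of the 3 hairpins within genes overlaps an exon.

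miR-378a-3p held almost all reads of the family. In CPM (reads of a miRNA per 1000000 reads of the library) it stood at 29067, 33686, 34957, 32271, 25214 and 29064.5 in hearts 1 to 6. Heart 5 was the lowest and heart 3 the highest, 1.39-fold apart. The mean was 30710 ± 3604 CPM (SD, n = 6), the tenth highest of 977 mature miRNAs. That rank counts miRNAs by hairpin name, so miR-486-5p and miR-3107-5p, both above miR-378a-3p, are counted apart. In every heart it was below miR-27b-3p (36017 ± 1960 CPM) and miR-26a-5p (39577 ± 5413 CPM), and above miR-10a-5p (21971 ± 2364 CPM) and miR-30d-5p (20888 ± 1983 CPM). These 4 were picked as the nearest in mean level over the same hearts, so their order is a description with no test. Adapter ligation favours some RNA ends, so ratios between different miRNAs are ratios of reads.

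miR-378a-5p, the passenger strand, stood at 453, 405, 409.8, 408.96, 383 and 357 CPM in hearts 1 to 6. Heart 1 was the highest and heart 6 the lowest, so its order over the hearts was not that of the 3p strand. After TMM scaling of the library sizes heart 1 was still the highest. The lowest was then heart 5 (367 CPM), as for the 3p strand, with heart 6 near it (371 CPM). The mean was 403 ± 32.1 CPM (SD, n = 6), at rank 78.

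The copies were far lower. miR-378d stood at 83.2, 94.4, 85.9, 89.0, 76.2 and 76.7 CPM, with a mean of 84.2 ± 7.08 (SD, n = 6). miR-378b stood at 72.2, 91.6, 85.2, 77.2, 70.9 and 77.3 CPM, with a mean of 79.1 ± 7.93. In both, heart 2 was the highest and heart 5 the lowest. miR-378c, the rarest, stood at 30.03, 25.4, 26.3, 24.7, 20.97 and 23.6 CPM, with a mean of 25.2 ± 3.01, highest in heart 1 and lowest in heart 5. Behind these values are 98 to 143 reads per library for miR-378c, 306 to 455 for miR-378b, 353 to 469 for miR-378d, 1622 to 2300 for miR-378a-5p and 127992 to 167308 for miR-378a-3p.

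**Figure D1:**
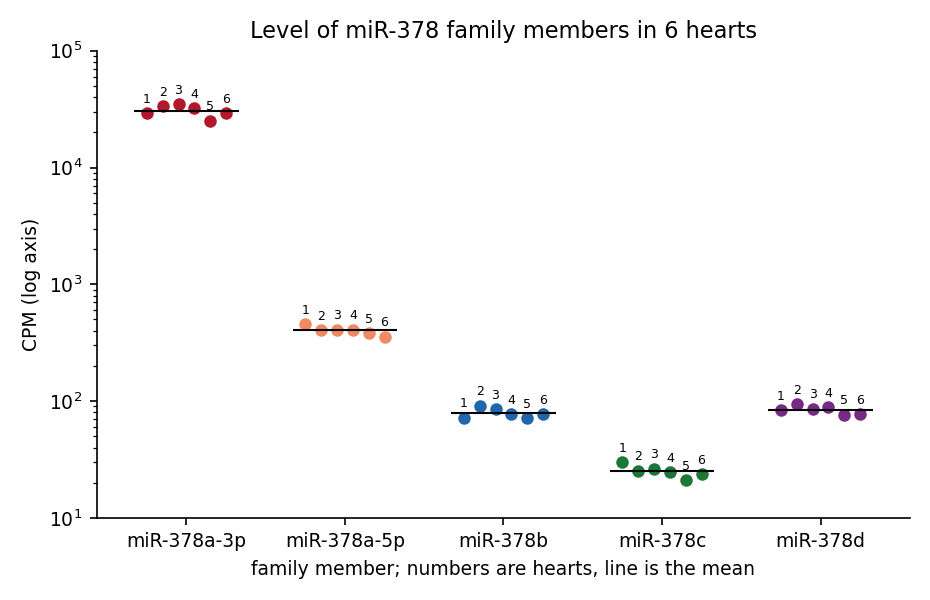
Level of each family member in CPM on a log axis, 1 point per heart (numbers are the hearts), with a line at the mean. miR-378a-3p, between 25214 and 34957 CPM, lies far above miR-378a-5p and the 3 copies, and miR-378b and miR-378d overlap.

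The fourth entry chosen by name, Gm25301 read in its own plus-strand sense, had 1 read in heart 3 and none in the other 5 hearts. A count of 0 allows up to 3 reads, or 0.499 to 0.756 CPM depending on the library. Against 895766 reads of the antisense entry at the same place, that is 1.12 reads per 1000000 (exact binomial 95% interval 0.0283 to 6.22). The reads booked at this locus therefore lay on the strand of Ppargc1b and miR-378a. Since reads were not counted by molecule, intervals cover counting error only.

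Summed, the 5 mature strands of the family held 3.13% ± 0.363 of the counts (SD, n = 6), from 2.58% in heart 5 to 3.56% in heart 3. miR-378a-3p made up 98.1% ± 0.191 of that sum, between 97.8% and 98.3%. The 3 copies together held 188 ± 15.2 CPM.

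Comparison of the copies put miR-378a-3p 387-fold above miR-378b, 363-fold above miR-378d and 1216-fold above miR-378c. The passenger strand miR-378a-5p was also above them, by 5.10-fold for miR-378b, 4.78-fold for miR-378d and 16.0-fold for miR-378c. miR-378b and miR-378d stood 3.14-fold and 3.35-fold above miR-378c. All 8 of these ratios held in 6 of 6 hearts, each with an exact p of 0.03125 and an adjusted p of 0.0352 (sign-flip permutation test, two-sided, over 9 pairs). The ninth pair, miR-378d and miR-378b, was 1.07-fold apart, with ratios between 0.993 and 1.154 and miR-378d higher in 5 of 6 hearts (exact p = 0.0625, adjusted p = 0.0625). Their order is thus not settled by these 6 hearts. How reads that match several copies were treated is not given in the sources used here, and its part in the levels of the copies was not tested.

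The miR-378a hairpin gave 75.7 reads of the 3p strand per read of the 5p strand, pooled over the 6 libraries (exact binomial 95% interval 74.4 to 77.1). As a 5p share that interval is 1.28% to 1.33%, while single hearts ran from 1.16% to 1.54%. It covers the counting error of the pooled reads only, and not the spread between hearts. The log2 ratio of 5p to 3p was -6.25 ± 0.11 (SE, worked back from edgeR's test statistic). Its SD over the hearts was 0.179, and the 3p strand was higher in 6 of 6. With libraries as blocks, edgeR's quasi-likelihood test gave an adjusted p of 5.46e-315. edgeR pooled the spread over all hairpins tested, so that p does not rest on miR-378a alone. On the 6 hearts alone the exact p was 0.03125 (sign-flip permutation test, two-sided), the smallest that 6 hearts allow. An excess of the 3p strand was called in 40.7% of the hairpins tested, 87 in number, with a median fitted ratio of 43.1-fold. Of these, 34 had a larger ratio than miR-378a in edgeR's fit. By pooled reads, 36 hairpins had a lower 5p share than miR-378a. In the order of the 5p share, miR-378a stood at place 37 from the lowest with 1.30%, between miR-200c (1.01%) and miR-153 (1.29%) below it and miR-148b (1.33%) and miR-547 (1.56%) above it. Of these 4 neighbours, miR-148b had 22577 reads of the 3p arm, and the others between 98 and 458.

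**Figure D2:**
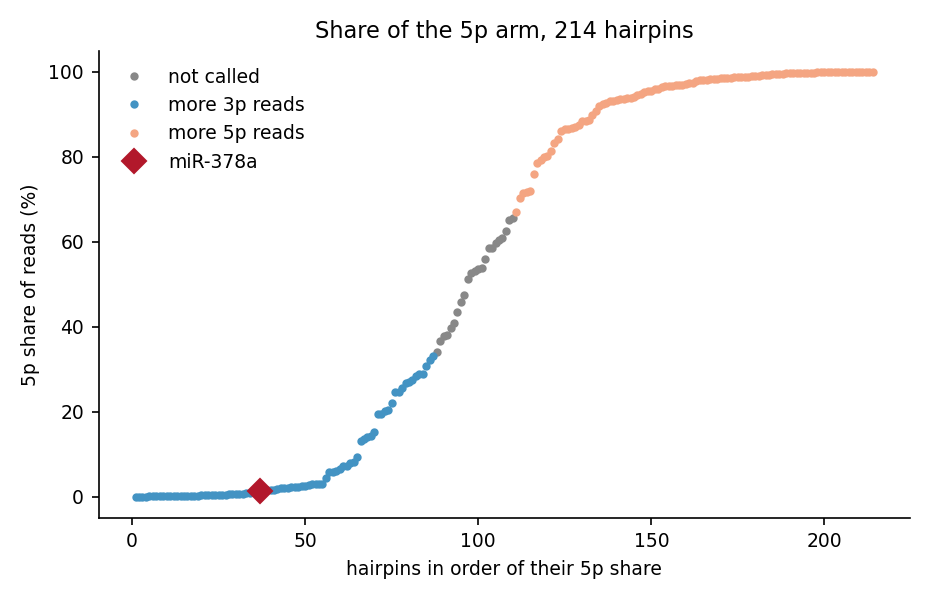
Share of reads from the 5p arm in percent for all hairpins tested, pooled over the 6 libraries and put in order of that share. miR-378a (diamond) lies at place 37 with 1.30%, on the flat part of the curve where almost all reads come from the 3p arm.

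The small share of the passenger strand was not the same in every heart. It was 1.54%, 1.19%, 1.16%, 1.25%, 1.496% and 1.21% of the miR-378a reads in hearts 1 to 6. Hearts 1 and 5 lay above the other 4, which ran from 1.16% to 1.25%. The spread exceeded counting noise (chi-square 158, adjusted p = 5.88e-31 over all hairpins tested). Without heart 1 the chi-square was 90.9 (adjusted p = 1.67e-17). Such spread was called in 28.5% of the hairpins, and in 87.0% of the 46 whose rarer arm averaged 100 reads or more. The coefficient of variation (CV, SD over mean) of the share was 12.6%, next to a median of 12.7% for those 46 hairpins.

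The level of miR-378a-3p itself also differed between hearts beyond counting noise, with a chi-square of 11049.5 on 5 degrees of freedom. At this depth a small difference is enough to pass. Such spread was called in 71.8% of the 348 mature miRNAs averaging 10 reads or more, and in 90.4% of the 208 averaging 100 or more. Without heart 5 the chi-square was 4348 and the mean level 31809 ± 2678 CPM (SD over 5 hearts). The CV of miR-378a-3p was 11.7%, near the median of 12.3% for those 208 miRNAs, and 96 of them had a lower CV. miR-378a-5p was steadier at 7.96% (chi-square 66.1, adjusted p = 1.95e-12), with 37 of the 208 lower. Its chi-square was 27.1 without heart 1 and 32.9 without heart 6, and still passed. miR-378b (CV 10.03%, adjusted p = 0.00196) and miR-378d (8.402%, adjusted p = 0.0119) passed the test, and lost the call without heart 2 (adjusted p = 0.130 and 0.145). miR-378c (CV 12.0%, adjusted p = 0.115) did not pass. It passed after TMM scaling (adjusted p = 0.0181), while its chi-square of 9.51 was 3.71 without heart 1 (adjusted p = 0.502) and 4.61 without heart 5.

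**Figure D3:**
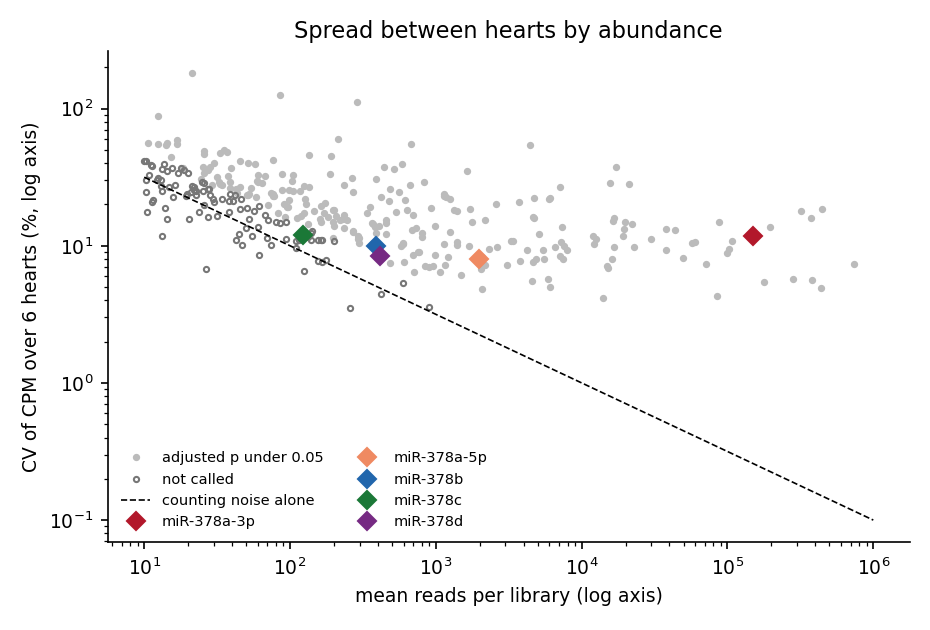
CV of CPM over the 6 hearts against mean reads per library for 348 mature miRNAs, both on log axes, with the CV that counting noise alone would give (dashed). miR-378a-3p (11.7%) lies far above the dashed line, while miR-378c, with a like CV of 12.0% but far fewer reads, lies near it.

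In heart 5, the lowest for miR-378a-3p, the summed fibroblast markers stood apart, almost wholly through miR-199a-3p. The fibroblast pair miR-199a-3p and miR-214-3p summed to 5014 CPM there and to between 2650 and 3152 CPM in the other 5 hearts. Of the sum in heart 5, miR-199a-3p made up 4900 CPM. miR-214-3p was also highest there, but only at 114 CPM against a mean of 92.6 ± 13.7 CPM (SD, n = 6). The smooth muscle pair miR-143-3p and miR-145a-5p summed to 113480 CPM in heart 5, above but near heart 6 at 102716 CPM, with heart 4 lowest at 65604 CPM. The cardiac muscle markers miR-208a-3p, miR-499-5p, miR-133a-3p and miR-1a-3p had their lowest sum in heart 5, at 94127 CPM, with heart 3 close to it at 94935 CPM and the highest at 106440 CPM. Within that sum miR-1a-3p went the other way, with its highest level, 8709 CPM, in heart 5. Leukocyte markers ran from 1970 CPM in heart 5, near heart 6 at 2007 CPM, to 2688 CPM in heart 1, the endothelial pair from 83979 to 97257 CPM, and the erythroid pair from 2176 to 5691 CPM. miR-133a-3p (mean 89003.5 CPM) made up most of the cardiac muscle sum, and miR-143-3p (88965 CPM) most of the smooth muscle sum. The endothelial sum was mostly miR-126a-5p (77582 CPM) and the erythroid sum mostly miR-451a (3476 CPM). All 15 markers of the 6 cell types had reads. The part of cell makeup in the miR-378a-3p level was not tested, and in bulk tissue fewer cells of a type and less RNA per cell cannot be told apart.

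The ratios of the copies to miR-378a-3p did not pass a test for differences between hearts. Per 1000 reads of miR-378a-3p there were 2.49, 2.72, 2.44, 2.39, 2.81 and 2.66 reads of miR-378b in hearts 1 to 6. The same figure was 2.86, 2.80, 2.46, 2.76, 3.02 and 2.64 for miR-378d. For miR-378c it was 1.03, 0.753, 0.751, 0.766, 0.832 and 0.811, with heart 1 above the other 5. None of these 3 ratios differed between hearts beyond counting noise by a chi-square test that was added after the values were seen (adjusted p = 0.170 for miR-378b, 0.0842 for miR-378d and 0.0916 for miR-378c). For miR-378d the call changed without heart 4 (adjusted p = 0.0468), and for miR-378c without hearts 4 and 5 (adjusted p = 0.0407). The chi-square of 9.91 for miR-378c was 1.05 without heart 1, and that of 10.2 for miR-378d was 4.35 without heart 3 and 5.58 without heart 5. For miR-378b it was 8.12, and 4.88 without heart 5. A p that misses the threshold does not show that the ratios are constant, and with 98 to 469 reads per library only larger shifts could pass.

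For most other miRNAs the same test was passed. The ratio to miR-378a-3p differed between hearts for 79.3% of the 347 miRNAs tested. Among 101 miRNAs outside the family with a mean of 81.8 to 617 reads, from 1.5 times below miR-378c to 1.5 times above miR-378d and likewise chosen after the values were seen, 95 differed and 6 did not. The passenger strand of the same hairpin was among those that differed (chi-square 158, adjusted p = 7.95e-32, and 90.9 without heart 1). For this strand the test is that of the arm share above, on the same counts, and only the adjustment differs. It is thus no second result. Per 1000 reads of miR-378a-3p there were 15.6, 12.03, 11.7, 12.7, 15.2 and 12.3 reads of miR-378a-5p, with hearts 1 and 5 high as above. The CV of this ratio was 12.8%. It was lower for miR-378b (6.59%) and miR-378d (7.03%), but not for miR-378c (13.03%). miR-378a-5p had more reads than the copies, which lets smaller shifts pass the test. The copies are separate loci on other chromosomes that resemble miR-378a-3p in sequence, and miR-378a-5p comes from its own hairpin but does not. The part of shared sequence in these ratios was not tested.

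**Figure D4:**
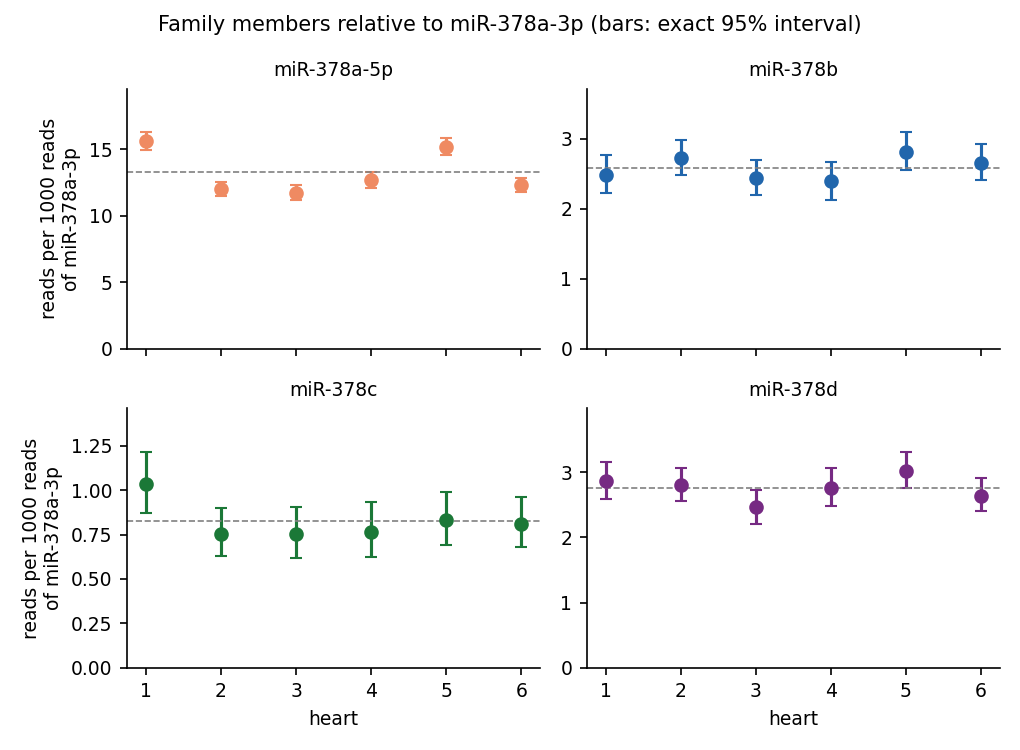
Reads of each family member per 1000 reads of miR-378a-3p in each heart, with exact binomial 95% intervals and a dashed line at the mean, each panel from 0. miR-378a-5p is high in hearts 1 and 5 (15.6 and 15.2), while the intervals of miR-378b overlap in all hearts and those of miR-378d in all pairs but hearts 3 and 5.

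Similar patterns over the hearts were looked for among 207 other miRNAs averaging 100 reads or more, by Pearson r of log2 CPM after TMM scaling. These r values describe 6 points that share libraries and depth. The 5 most like miR-378a-3p were miR-155-5p (r = 0.92), known from immune cells, miR-7068-3p (0.90), miR-151-5p (0.90), miR-378b (0.88) and miR-378d (0.87). miR-378c came at place 26 (0.65) and miR-378a-5p at place 53 (0.48). The median over all 207 was 0.16, and 50 had an r over 0.5. The least like were miR-218-5p (-0.92), from introns of the Slit genes, miR-676-5p (-0.90) and miR-130a-3p (-0.89), each highest in heart 5. Leaving out 1 heart kept only 1 to 4 of the first 5, so that order is loose. For miR-378b the r stayed between 0.88 and 0.92 with any 1 heart left out, for miR-378d between 0.74 and 0.93, and for miR-378c it ran from 0.13 to 0.98. For miR-378a-5p it ran from 0.21 to 0.87. On library totals in place of TMM scaling the r was lower for each family member. It was then 0.84 for miR-378b, 0.82 for miR-378d, 0.49 for miR-378c and 0.28 for miR-378a-5p.

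**Figure D5:**
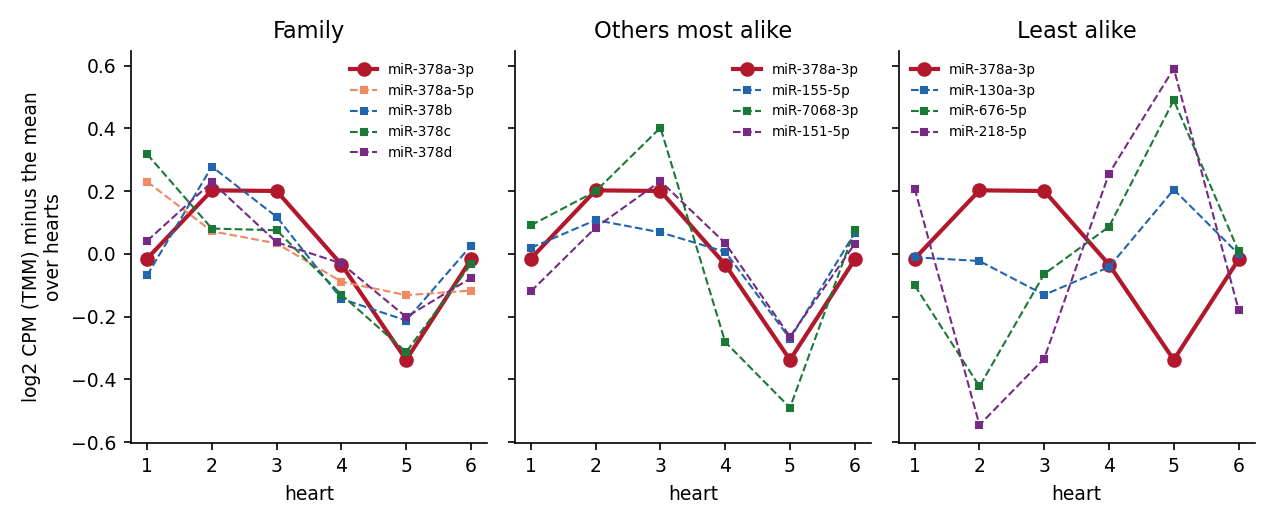
Log2 CPM after TMM scaling in each heart, less the mean over hearts, for miR-378a-3p (thick line) with its family, the 3 other most alike miRNAs and the 3 least alike. miR-378a-3p is highest in hearts 2 and 3 and lowest in heart 5, and the least alike miRNAs are highest in heart 5.

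Other miRNAs, from a list drawn up for heart energy metabolism, gave no common pattern. Of 15 on the list, 14 were listed and 13 averaged 10 reads or more. All 13 differed between hearts beyond counting noise, where 90.4% of miRNAs of at least 100 reads did. miR-22-3p (150635 ± 11140 CPM), miR-133a-3p (89003.5 ± 4407 CPM) and miR-27b-3p were above miR-378a-3p and the other members below it. miR-33-5p, which lies in the Srebf2 gene of sterol control, had 47 reads in all, and the hypoxia miRNA miR-210-3p stood at 47.8 ± 8.07 CPM. Their median r with miR-378a-3p was 0.07, below the 0.16 of all miRNAs. The highest were the myosin gene miRNAs miR-208a-3p (0.80) and miR-499-5p (0.67) with the muscle miRNA miR-133a-3p (0.72). The lowest were miR-338-3p (-0.72) and miR-208b-3p (-0.67), which is made from the beta myosin gene Myh7.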

How the data were processed

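Small RNA of 6 mouse hearts was sequenced, 1 library each. As deposited, each file gives read counts (whole numbers, not normalized) for each miRNA arm, strand and locus, per the file headers. The submitters' processing notes name GRCm38, edgeR and DESeq. How reads were aligned and counted, and what was done with reads matching more than 1 locus, is not given in the sources used here. Library totals ran from 3966169 to 6007322 counts. Of 76 antisense entries, 38 were assigned to an opposite-strand hairpin (GENCODE M21) that at least 0.5 of the entry overlapped, with the arm exchanged. The remaining 38, not used, made up 0.000706% of a library or less. Entries of 1 hairpin name were summed, which gave 977 mature miRNAs.

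CPM used library totals. Arms were tested with edgeR 4.0.16 (quasi-likelihood, library as a block) over hairpins with a mean of at least 10 reads, called at an adjusted p under 0.05 and 2-fold. DESeq2 1.42.0 was an alternative. Spread, arm share and ratios were tested by chi-square tests of counts, and family pairs by exact sign-flip permutation with a pseudocount of 0.5, all with Benjamini-Hochberg adjustment. The tests were checked on simulated data. Patterns used TMM scaling with a prior count of 1, and folds RNAfold 2.7.2. Besides the entries by name, the text names the 2 miRNAs above and below miR-378a-3p, the 5 most and 3 least alike, a list on heart energy metabolism, cell type markers, and the 2 hairpins on each side in arm share. Members, lists and tests were chosen with earlier results of these data known. No pair of libraries held identical values.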

Additional observations from a re-analysis of the deposited data

Results flagged for a closer look

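In 10 sets of 6 values checked (the level of each family member, each ratio to miR-378a-3p, and the passenger share), 1 heart stood far from the others. For miR-378c per 1000 reads of miR-378a-3p, heart 1 stood at 1.03 and the other 5 hearts between 0.751 and 0.832. The gap was 0.714 of the whole range, above Dixon's 95% critical value for 6 samples. Chance flags about 1 in 20 such groups where they are separate. These 10 are not: the passenger share and the miR-378a-5p ratio use the same counts, and all ratios share miR-378a-3p. The value rests on 143 reads in heart 1 (ratio 1.03, exact binomial 95% interval 0.871 to 1.22), and without heart 1 the ratio had a chi-square of 1.05 (adjusted p = 0.910).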

How the results depend on the processing

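Of 206 comparisons with an alternative setting, 147 were rated the same as the main one. For tested results that means the direction and call were kept. The 147 also include levels, numbers of hairpins called and likeness, which have no call of their own. Those of the miR-378a-5p ratio repeat the arm share. The sign of the miR-378a arm ratio turned to 6.25 when antisense entries kept the arm names of the file, since those names are of the opposite strand. The fit without the replicate block gave -6.25 (adjusted p = 7.86e-23), and DESeq2 -6.25. The chi-square for the spread of miR-378c rose to 14.7 with TMM scaling and now passed. That for the miR-378c ratio to miR-378a-3p was 9.24 and passed without hearts 4 and 5, a setting chosen after seeing the data. With 1 heart left out, chi-square ran from 7.79 to 19.98 for the spread of miR-378b, 7.50 to 15.6 for miR-378d, and 4.35 to 10.2 for the miR-378d ratio; the cause was not tested. Of the 5 most alike miRNAs, 1 to 4 remained.

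With 1 heart left out the sign-flip test cannot go below 0.0625, so no pair could pass, which says nothing about stability. The log2 ratios of miR-378a-3p then ran from 8.58 to 8.62 against miR-378b, 10.22 to 10.31 against miR-378c and 8.47 to 8.53 against miR-378d. Those of miR-378a-5p ran from 2.29 to 2.39, 3.96 to 4.02 and 2.22 to 2.29 in that order. miR-378b against miR-378c ran from 1.61 to 1.73, and miR-378d against miR-378c from 1.71 to 1.80. Depth limits miR-378c most.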
